A study of Mus musculus with 16 samples.

Results

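Translation initiation and elongation factors were followed in mouse naive T cells that lacked or kept the transcription factor subunit GABPα, before and after stimulation. The genes were chosen by name: every gene whose symbol in the array's gene table began with Eif and a digit from 1 to 6, or with Eef and 1 or 2, and that had a probe set naming it alone. There were 52 such genes among the 12394 measured. Each gene was represented by the probe set of highest mean over all arrays; 30 of the 52 had more than 1 probe set and 22 had 1.

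Naive T cells, sorted by FACS as CD25-, CD62L hi and CD44 lo, came from spleen and lymph nodes. WT mice carried the floxed alleles alone (Gabpa f/f), and KO mice carried the same floxed alleles with a CD4Cre transgene, so both genotypes were floxed and the Cre control without floxed alleles was not analysed here. CD4-Cre is active from the CD4+CD8+ thymocyte stage, so the gene was removed in both the CD4+ and the CD8+ lineage before the cells became naive T cells. Part of each sort was lysed at once (0 h) and the rest after 18 h of stimulation through CD3 and CD28 in the presence of IL-2. With 2 lineages, 2 genotypes and 2 times there were 8 groups of 2 biological replicates, 16 arrays in all; the age of the mice behind the arrays was not given in the sources used here, and the labels do not say which mice a replicate came from, so p-values speak only to the spread among the arrays at hand.

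Values are log2 probe set signals, and every difference below is a difference of group means on the log2 scale with its standard error (SE), so that 1 is a doubling of signal. A gene is said to have risen or fallen, or to be higher or lower, only where limma's adjusted p over all 12394 genes was under 0.05 and the fold was over 1.5. Because different probe sets bind with different strength, signals of different genes are not set against each other.

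Arrays carried the T cell transcripts Cd3e (8.48 to 9.98) and Cd3g (10.58 to 12.06). Cd8a stood at 10.89 to 12.01 in CD8 arrays and at 4.42 to 7.56 in CD4 arrays, the highest of these in replicate 1 of CD4 WT at 0 h, which also held the highest signal of the B cell gene Ms4a1 (6.38, against 3.48 to 5.35 elsewhere). Of the other 2 B cell genes measured, Cd79b stood at 6.11 in that array, at 3.45 to 4.89 in the other CD4 arrays and at 5.11 to 7.57 in CD8 arrays, and Cd79a at 3.54 to 4.26 in all arrays, highest in replicate 2 of CD8 KO at 18 h. Il2ra, the activation-induced IL-2 receptor chain, lay between 2.64 and 4.51 at 0 h and between 7.49 and 8.94 at 18 h. Gabpa itself was not lower in KO arrays, with KO minus WT differences in CD4 cells of 0.59 at 0 h and 0.72 at 18 h, the latter past the thresholds but kept in 4 of 16 leave-one-out fits, and in CD8 cells of 0.12 and 0.31 (SE 0.20). Its other probe set read 0.95 to 1.53 higher in KO than in WT arrays over the 4 comparisons. Whether its probe sets read the deleted exons was not given in the sources used here, so they check nothing. Gabpb1, the partner subunit, was higher in KO cells in all 4 comparisons, by 1.37 to 1.63 (SE 0.22). Replicate 2 of CD8 KO at 18 h stood apart, with a mean 3′ minus 5′ signal difference of the actin and Gapdh control probe sets of 3.76, against 1.58 in replicate 1 of CD4 WT at 0 h, 1.11 in replicate 2 of CD8 KO at 0 h and 0.46 to 0.85 in the other arrays. In that group 13 of the 52 factors differed by more than 0.5 between replicates, 7 lower and 6 higher in replicate 2, against 8 in CD4 WT at 0 h and 2 to 4 in each other group.

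Protein synthesis starts when eIF2 brings the initiator tRNA to the small ribosomal subunit, eIF3 and the eIF1 and eIF1A proteins hold the subunit in a scanning state, and the cap-binding eIF4 factors load the mRNA. eIF5 and eIF5B then let the large subunit join, eIF2B recharges eIF2 with GTP, and the eIF2 kinases block that step by phosphorylating eIF2. During elongation eEF1A delivers aminoacyl-tRNA and eEF2 moves the ribosome along. Resting T cells make little protein and increase translation sharply when stimulated through the T cell receptor.

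GABPα is an Ets family protein that binds DNA with a GGAA core. The letters CCGGAA and their reverse complement TTCCGG, an Ets type sequence, were looked for on both strands in RefSeq promoter windows of GRCm38.p6, which run from 250 bases before to 50 bases after a transcription start. Windows were found for 42 of the 52 factors, and 21 of these, or 50%, held the letters. A gene was counted if any of its windows held them. The same count gave 2583 of 9883 measured genes (26.1%) and 4503 of all 27025 genes with windows (16.7%). Of single windows, 4894 of 32851 (14.9%) held the letters. A match is a description of the sequence and not evidence of binding, and promoters of factors were not tested against the rest. Of the 7 factors that differed between KO and WT cells in any comparison, Eif6 had no window. Eif3k and Eef1aknmt had windows without these letters. The other 4 are printed because their windows held the letters. The KO differences of all 7 are described next. The letters found are in capitals, and each window reads 5′ to 3′ on the gene's strand.
Eif2d, chr1:131152957-131153256, plus strand: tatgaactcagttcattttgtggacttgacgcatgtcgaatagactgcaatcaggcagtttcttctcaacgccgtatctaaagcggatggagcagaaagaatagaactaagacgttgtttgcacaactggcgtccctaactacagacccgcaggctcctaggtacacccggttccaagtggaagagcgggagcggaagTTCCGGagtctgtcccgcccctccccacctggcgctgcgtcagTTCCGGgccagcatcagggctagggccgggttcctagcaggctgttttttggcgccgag
Eif2b2, chr12:85219231-85219530, plus strand: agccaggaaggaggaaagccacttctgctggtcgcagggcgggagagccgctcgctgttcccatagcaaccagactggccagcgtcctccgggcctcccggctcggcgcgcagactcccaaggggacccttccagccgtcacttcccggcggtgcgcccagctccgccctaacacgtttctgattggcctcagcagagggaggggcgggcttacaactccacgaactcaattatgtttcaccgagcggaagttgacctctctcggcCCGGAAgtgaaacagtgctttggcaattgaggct
Eif3l, chr15:79074973-79075272, plus strand: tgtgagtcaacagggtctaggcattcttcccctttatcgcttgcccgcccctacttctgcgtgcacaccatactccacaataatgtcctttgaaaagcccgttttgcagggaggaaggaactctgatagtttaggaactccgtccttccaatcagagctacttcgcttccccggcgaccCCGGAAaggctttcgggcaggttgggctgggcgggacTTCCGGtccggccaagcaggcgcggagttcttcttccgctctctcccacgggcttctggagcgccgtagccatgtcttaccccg
Eif4a2, chr16:23107218-23107517, plus strand: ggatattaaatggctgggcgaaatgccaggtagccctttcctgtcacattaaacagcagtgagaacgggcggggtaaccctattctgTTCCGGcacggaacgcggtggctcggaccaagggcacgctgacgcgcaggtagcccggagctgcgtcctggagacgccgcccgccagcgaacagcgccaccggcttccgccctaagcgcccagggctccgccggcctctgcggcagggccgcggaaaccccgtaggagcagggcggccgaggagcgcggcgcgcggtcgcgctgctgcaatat
Counted from the transcription start, the matches began at -52 and -9 in Eif2d, at 17 in Eif2b2, at -71 and -34 in Eif3l and at -163 in Eif4a2.

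Most factors did not differ between KO and WT cells past the thresholds. At 0 h, 1 of 52 was higher in CD4 KO cells, where 0.533% of all genes were higher and 0.742% lower, and 1 was higher in CD8 KO cells, where 1.13% of all genes were higher and 0.5% lower. At 18 h, 1 was higher and 5 were lower in CD4 KO cells (1.92% and 9.62% of the 52, against 2.72% and 4.14% of all genes), and 1 was lower and none higher in CD8 KO cells, against 1.59% of all genes higher and 1.16% lower. The median KO minus WT difference of the 52 in CD4 cells was 0.04 before and -0.09 after stimulation, beside -0.06 and 0.02 over all genes, and in CD8 cells it was 0.09 and -0.13, beside 0.02 and 0.07. In all, 7 factors differed in at least 1 of the 4 comparisons and 45 in none. The same count over all genes was not made, so the 7 cannot be set against it. In these sorted populations, fewer cells of a type and less RNA per cell cannot be told apart.

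**Figure D1:**
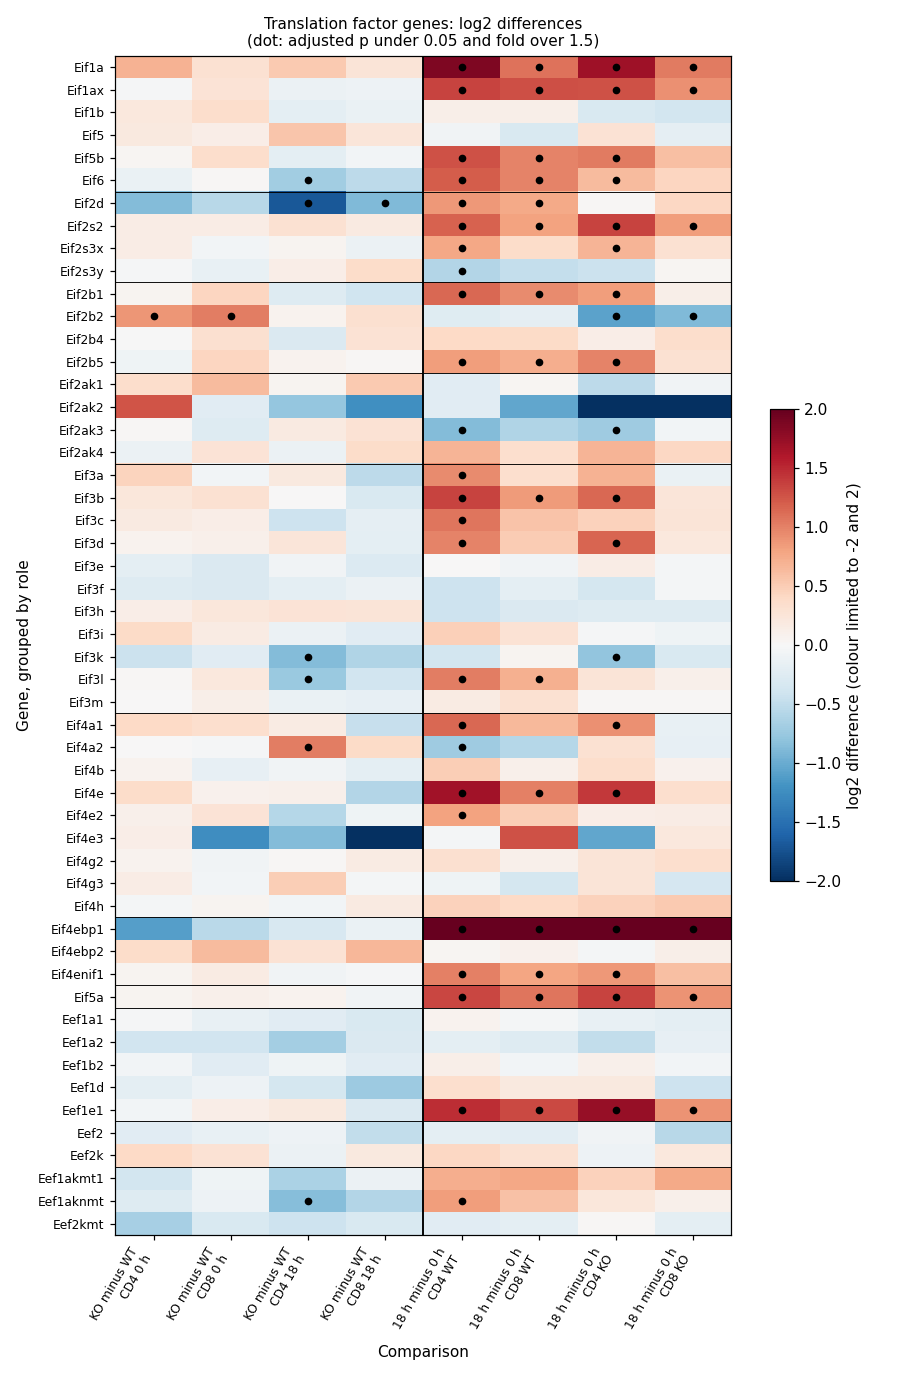
Log2 differences of the 52 translation factor genes (rows, grouped by role) in the 4 KO minus WT and the 4 18 h minus 0 h comparisons (columns), red for higher and blue for lower, with colour limited to -2 and 2 and a dot where a gene passed both thresholds. The KO columns hold few dots, while the CD4 WT response column holds 25. Among KO cells with a dot, Eif2d at -1.70 in CD4 cells at 18 h is the deepest blue. Eif4e3 in CD8 cells at 18 h, at -2.32, is past the colour limit but has no dot.

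Eif2d was the factor with the largest passing KO difference. It encodes eIF2D, a single-chain protein that can bring tRNA to the small ribosomal subunit without GTP and acts in recycling and reinitiation. In CD4 cells at 18 h its signal was 9.36 and 9.50 in WT arrays and 7.73 and 7.73 in KO arrays. The KO values lay well below both WT values, and the difference was -1.70 (SE 0.19, limma adjusted p = 0.000214), kept when each of the 16 arrays was left out in turn. In CD8 cells at 18 h WT arrays read 9.06 and 9.39 and KO arrays 8.01 and 8.67. Groups did not overlap, but the 2 KO arrays were 0.66 apart, and the difference of -0.89 (SE 0.19, adjusted p = 0.0307) depended on them. It was -1.21 (adjusted p = 0.00423) without replicate 2, the array of high 3′ minus 5′ difference, and -0.56 (adjusted p = 0.0488), under the 1.5-fold threshold, without replicate 1. That call was also lost without either CD4 KO 18 h array (adjusted p = 0.0505), without either CD8 WT 0 h array (0.0535) and without replicate 2 of CD8 WT at 18 h (0.272).

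At 0 h Eif2d read 8.57 and 8.57 in CD4 WT and 7.78 and 7.63 in CD4 KO arrays, a difference of -0.87 (adjusted p = 0.0535) that missed the threshold and passed it with replicates as a block (adjusted p = 0.0248). CD8 arrays at 0 h read 8.46 and 8.50 in WT and 7.95 and 7.89 in KO cells, a difference of -0.56 (adjusted p = 0.255). KO arrays thus lay below WT arrays in each of the 4 settings, without overlap, but passed the thresholds at 18 h only. Of the gene's other 3 probe sets, the 2 brighter ones read -1.53 and -1.10 in CD4 cells at 18 h, and a dim one with a mean of 2.74 read -0.15.

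Eif2b2 encodes the beta subunit of eIF2B, part of its regulatory subcomplex. Unlike Eif2d it was higher in KO cells, and at 0 h. In CD4 cells at 0 h its signal was 9.01 and 8.91 in WT and 9.83 and 9.85 in KO arrays, a difference of 0.88 (SE 0.14, adjusted p = 0.00910). In CD8 cells at 0 h it was 8.83 and 8.87 in WT and 9.88 and 9.86 in KO arrays, a difference of 1.02 (SE 0.14, adjusted p = 0.00309). KO arrays of both lineages sat within 9.83 to 9.88 and WT arrays within 8.83 to 9.01. The CD8 call was kept in all 16 leave-one-out fits, and the CD4 call in 12 of 16. Each fit that dropped a CD4 array of 0 h lost it (adjusted p = 0.0538 to 0.0930) although the difference stayed between 0.83 and 0.93, the largest of these without the CD4 WT replicate of high Cd8a and Ms4a1 signal. Without either CD8 KO 18 h array, 2 factors rather than 1 passed in CD4 cells at 0 h.

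The Eif2b2 difference was smaller at 18 h. CD4 arrays then read 8.80 and 8.63 in WT and 8.80 and 8.75 in KO cells, a difference of 0.06 (adjusted p = 0.935), and CD8 arrays read 8.58 and 8.77 in WT and 8.88 and 9.11 in KO cells, a difference of 0.32 (adjusted p = 0.271). Signals of the gene's other 2 probe sets at 0 h were higher by 0.65 to 0.86 in KO than in WT cells, in both lineages. In CD8 cells at 18 h they read -0.22 and -0.09, against 0.32 of the brightest. Its 3 measured companions in eIF2B (Eif2b1, Eif2b4 and Eif2b5) had KO differences between -0.39 and 0.44 over the 4 comparisons, none past the thresholds.

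**Figure D2:**
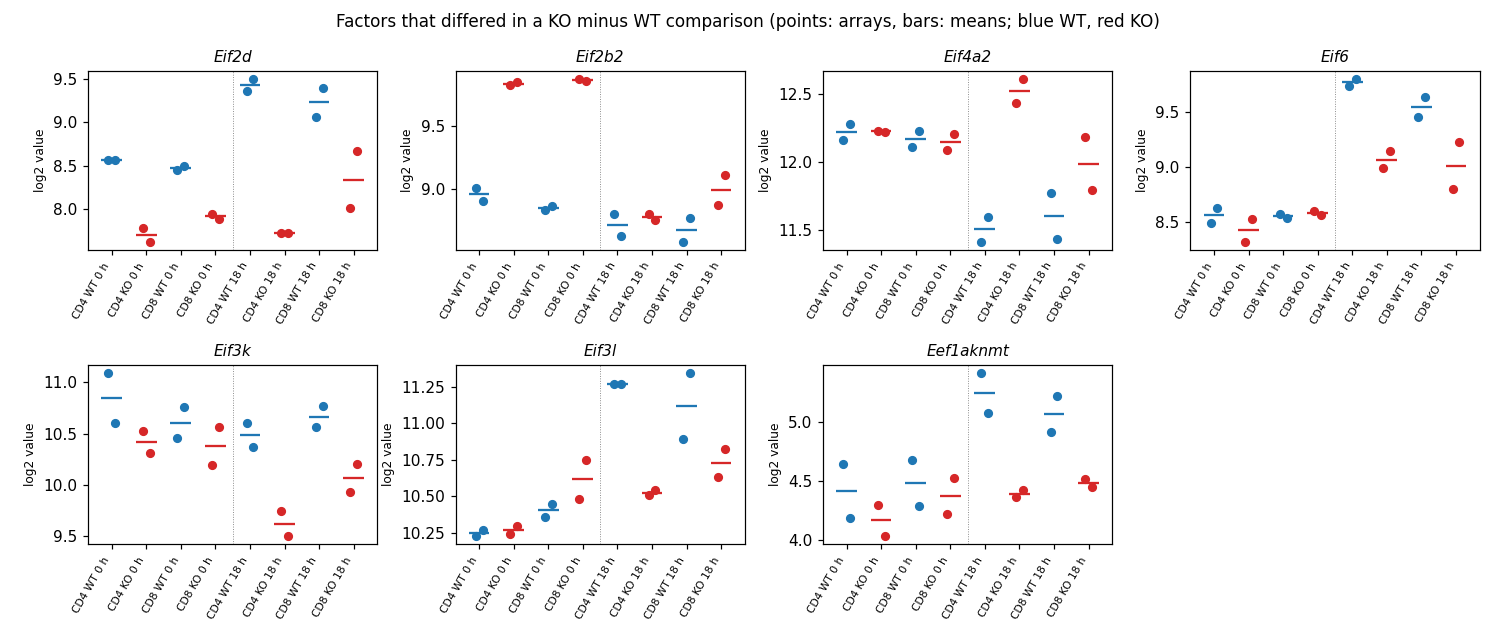
Log2 signal of the factors that differed between KO and WT cells, 1 point per array in each of the 8 groups, bars giving the mean of 2 replicates (WT blue, KO red). KO arrays of Eif2d lie below WT arrays at each time in each lineage, past the thresholds at 18 h only. Eif2b2 is higher in KO arrays at 0 h, and Eif4a2 is higher in CD4 KO arrays at 18 h.

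Eif4a2 was the single factor higher in CD4 KO cells at 18 h. It encodes eIF4A2, the paralog of the RNA helicase eIF4A1 that unwinds mRNA ahead of the scanning subunit. Its signal was 11.41 and 11.60 in WT and 12.44 and 12.61 in KO arrays, a difference of 1.02 (SE 0.17, adjusted p = 0.00306) that held in all 16 leave-one-out fits. At 0 h the CD4 arrays read 12.16 and 12.28 in WT and 12.23 and 12.22 in KO cells, so the groups overlapped, with a difference of 0.00. CD8 arrays at 18 h read 11.77 and 11.43 in WT and 12.18 and 11.79 in KO cells. That difference of 0.38 (limma adjusted p = 0.281) did not pass.

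The other 4 factors lower in CD4 KO cells at 18 h belong to different steps of translation. Eif3k and Eif3l encode eIF3 subunits that sit next to each other at the edge of the complex. Eif3k read 10.60 and 10.37 in WT and 9.74 and 9.50 in KO arrays (difference -0.86, SE 0.21, adjusted p = 0.0249). Eif3l read 11.27 and 11.27 in WT and 10.51 and 10.54 in KO arrays (difference -0.74, SE 0.16, adjusted p = 0.0161). Its 2 dimmer probe sets, with means of 5.09 and 4.53, read -0.55 and 0.24, so they did not share a sign. Eif6, whose product keeps the large subunit from joining too early and takes part in its maturation, read 9.73 and 9.80 in WT and 8.99 and 9.14 in KO arrays (difference -0.70, SE 0.16, adjusted p = 0.0200). Eef1aknmt, a methyltransferase that modifies eEF1A, read 5.42 and 5.08 in WT and 4.36 and 4.42 in KO arrays (difference -0.86, SE 0.21, adjusted p = 0.0270). WT and KO arrays did not overlap in any of the 4 genes. For genes picked because they passed in the same comparison this is close to built in, here and elsewhere in the text, and adds no support. Eef1aknmt had a mean of 4.58 over all arrays, below the array medians of 5.24 to 5.43, where a change of signal is hard to measure.

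These 4 calls each depended on the 2 replicates of a group: with either CD4 KO 18 h array left out or without replicate 1 of CD4 WT at 18 h, Eif2d and Eif4a2 were what remained of the 6 calls in this comparison, and without replicate 2 of CD4 WT at 18 h Eef1aknmt remained as well. The same 4 genes differed by -0.59 (Eef1aknmt), -0.60 (Eif3k), -0.39 (Eif3l) and -0.53 (Eif6) in CD8 cells at 18 h, none past the thresholds (adjusted p = 0.109 to 0.251). With replicates as a block, CD8 cells at 18 h gave 5 calls rather than 1, with Eef1d, Eif3k and Eif4e3 also lower (adjusted p = 0.0443, 0.0212 and 0.0264) and Eif4ebp2 higher (0.0447). The Eif4ebp2 value of 0.66 came from its brightest probe set, and the other 4 read between -0.76 and 0.46, with a mean of -0.02 over all 5. Without replicate 1 of CD8 KO at 18 h, which left the array of high 3′ minus 5′ difference alone in its group, 8 other factors passed and Eif2d did not. The part of that array in the CD8 result was not tested beyond this.

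Among the 45 factors without a KO call were these of each role. They were taken by highest mean, so their ranges are not those of their roles. Eif2s2 and Eif2s3x, the beta and gamma subunits of eIF2, differed by -0.11 to 0.31 between KO and WT cells. In CD8 cells at 18 h other Eif2s2 probe sets read -0.91 to -0.09, against 0.18 of the brightest. Eif3e and Eif3i, 2 of the 9 eIF3 genes without a call, lay between -0.30 and 0.38. Eif4g2, a scaffold related to eIF4G, lay between -0.07 and 0.17 and the helicase gene Eif4a1 between -0.46 and 0.40. Other Eif4a1 probe sets read -0.03 and -1.96 in CD8 cells at 18 h. The tRNA-delivering factor gene Eef1a1 lay between -0.30 and -0.02, its exchange factor subunit Eef1b2 between -0.22 and -0.06, and the translocase gene Eef2 between -0.49 and -0.11. Eif5a, whose hypusine-bearing product helps the ribosome through difficult stretches, lay between -0.08 and 0.10 (SE 0.15). Its other probe set read -1.31 in CD8 cells at 18 h and -0.12 to 0.33 in the other comparisons. Eif5 and Eif1ax, which serve start codon choice and scanning, ranged from -0.11 to 0.56. Eif2ak3 and Eif2ak4, the kinases PERK and GCN2, ranged from -0.26 to 0.36, and Eef2k, the kinase of eEF2, from -0.11 to 0.40. Eif4ebp2 and Eif4enif1, genes of eIF4E-binding proteins, ranged from -0.08 to 0.66 (with Eif4ebp2 at -0.12 rather than 0.63 in CD8 cells at 0 h as a mean of its probe sets), and Eef1akmt1 and Eef2kmt, which methylate eEF1A and eEF2, from -0.66 to -0.08. Larger differences without a call were found among the remaining genes. Eif4e3 differed by -1.25 and -2.32 in CD8 cells at 0 h and 18 h, and its other probe set by -0.95 and -0.70. Eif2ak2 ranged from -1.22 to 1.26, its other probe set from -0.35 to 0.84, and Eif4ebp1 differed by -1.09 in CD4 cells at 0 h. A missed threshold with 2 arrays a group does not show that a gene was the same in both genotypes.

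More of these genes passed after stimulation than between genotypes. In CD4 WT cells 22 of 52 rose and 3 fell by 18 h (42.3% and 5.77%), where 12.2% of all genes rose and 14% fell. In CD8 WT cells 15 rose and none fell (28.8%), where 8.21% of all genes rose and 7% fell. CD4 KO cells had 16 up and 3 down (30.8% and 5.77%), beside 11.1% and 13.2% of all genes, and CD8 KO cells 6 up and 1 down (11.5% and 1.92%), beside 3.67% and 3.86%. The median response of the 52 was 0.47, 0.34, 0.25 and 0.11 in CD4 WT, CD8 WT, CD4 KO and CD8 KO cells, against -0.08, -0.06, 0.03 and 0.02 over all genes. All 15 factors that rose in CD8 WT cells were among the 22 of CD4 WT cells, an overlap that was not counted over all genes. They were Eef1e1, Eif1a, Eif1ax, Eif2b1, Eif2b5, Eif2d, Eif2s2, Eif3b, Eif3l, Eif4e, Eif4ebp1, Eif4enif1, Eif5a, Eif5b and Eif6.

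Eif4ebp1, whose product 4E-BP1 holds the cap-binding protein eIF4E inactive until mTORC1 phosphorylates it, had the largest response. Its signal was 6.04 and 5.53 in CD4 WT arrays at 0 h and 9.35 and 7.88 at 18 h. In CD8 WT arrays it was 5.86 and 5.99 at 0 h and 7.76 and 9.05 at 18 h. KO arrays went from 4.75 and 4.63 to 8.57 and 8.01 in CD4 cells and from 5.32 and 5.45 to 7.48 and 9.07 in CD8 cells. No 18 h array overlapped the 0 h arrays, but replicates at 18 h were up to 1.59 apart. The rises were 2.83, 2.48, 3.60 and 2.89 in CD4 WT, CD8 WT, CD4 KO and CD8 KO cells (SE 0.55, adjusted p = 0.00162, 0.00783, 0.000315 and 0.00615). Another probe set of the gene gave 2.75 to 4.14, while a dim one (mean 5.11) gave -0.18 to 0.26. Eif4e itself rose by 1.68 in CD4 WT, 1.002 in CD8 WT and 1.41 in CD4 KO cells (SE 0.27, adjusted p = 0.000418, 0.0221 and 0.00160) and differed by 0.34 in CD8 KO cells (adjusted p = 0.550). Eif4enif1, which encodes the eIF4E transporter 4E-T, rose by 1.01 and 0.79 in CD4 and CD8 WT cells.

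**Figure D3:**
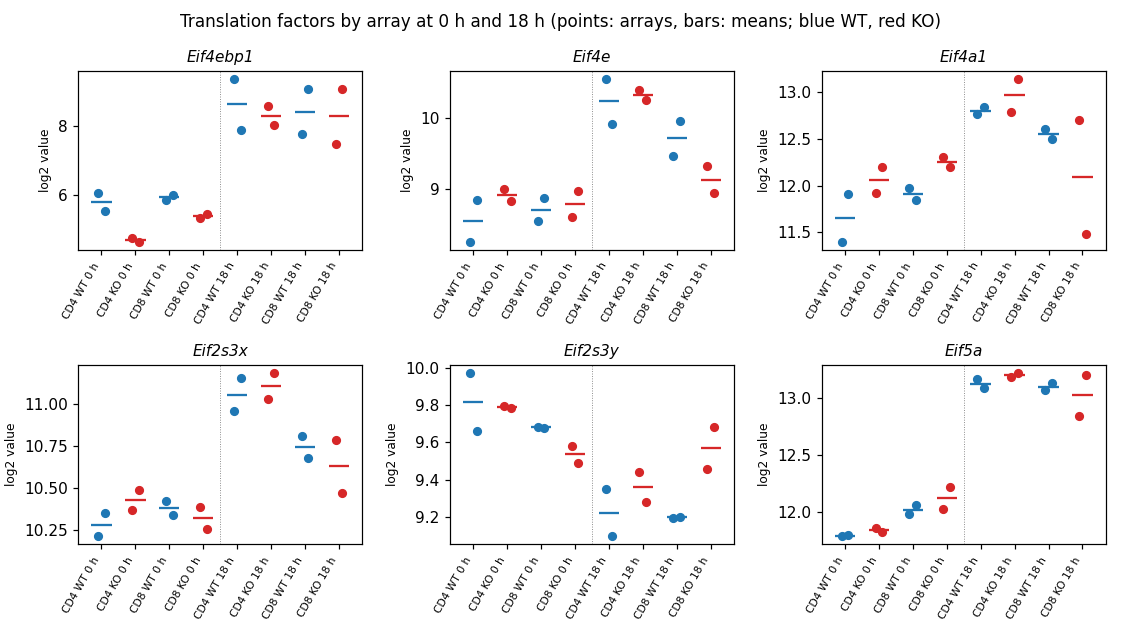
Log2 signal of 6 factors at 0 h and 18 h, 1 point per array and bars giving the mean of 2 replicates (WT blue, KO red; each panel has its own axis). Eif4ebp1, Eif4e and Eif5a lie higher in WT arrays at 18 h than at 0 h, Eif2s3x and Eif2s3y move in opposite directions in CD4 WT cells, and the CD8 KO 18 h replicates lie far apart for Eif4a1.

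Of the 6 genes of scanning, start codon choice and subunit joining, 4 rose in both WT lineages. Eif1a and Eif1ax, 2 genes for eIF1A, rose by 1.86 and 1.36 in CD4 WT and by 1.08 and 1.29 in CD8 WT cells. Eif1a arrays went from 7.99 and 7.73 to 9.95 and 9.49 in CD4 WT cells and from 8.21 and 8.24 to 9.23 and 9.38 in CD8 WT cells, with no overlap. Eif5b, the GTPase of subunit joining, rose by 1.27 and 0.99, and Eif6 by 1.20 and 0.99. Eif5 differed by -0.07 and -0.30 and did not pass. Its other 3 probe sets read 0.66 to 1.44 in CD4 WT and 0.08 to 0.49 in CD8 WT cells, so no direction is given for it.

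Among eIF2 genes, Eif2s2 rose by 1.18 in CD4 WT and 0.81 in CD8 WT cells, from 11.08 and 11.10 to 12.41 and 12.13 in the CD4 arrays. Eif2d rose by 0.86 and 0.75. The gamma subunit has an X-linked gene, Eif2s3x, and a Y-linked one, Eif2s3y, and these went in opposite directions in CD4 WT cells. Eif2s3x went from 10.22 and 10.35 to 10.95 and 11.15 (0.77, SE 0.15, adjusted p = 0.00197), and Eif2s3y from 9.97 and 9.66 to 9.35 and 9.10 (-0.59, SE 0.15, adjusted p = 0.0109). In CD8 WT cells the differences were 0.36 (adjusted p = 0.144) and -0.48 (0.0506). Eif2s3y signals were 9.10 to 9.97 over the 16 arrays.

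The eIF2B genes Eif2b1 and Eif2b5 rose by 1.14 and 0.83 in CD4 WT and by 0.95 and 0.73 in CD8 WT cells. Eif2b2 differed by -0.25 and -0.18 in WT cells and fell in KO cells, by 1.07 in CD4 and 0.88 in CD8 cells (SE 0.14, adjusted p = 0.000101 and 0.00221). These falls and the KO differences at 0 h share the KO arrays of 0 h. No eIF2 kinase gene rose. Eif2ak3 fell by 0.86 in CD4 WT and 0.72 in CD4 KO cells (SE 0.21, adjusted p = 0.00805 and 0.0245).

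In the 11-gene eIF3 group 5 genes rose in CD4 WT cells and 2 in CD8 WT cells. Eif3b, which encodes a scaffold subunit of the eIF3 core, rose by 1.36 and 0.84, from 8.60 and 8.94 to 9.94 and 10.32 in CD4 arrays. Eif3l rose by 1.02 and 0.71. Eif3a, Eif3c and Eif3d rose by 0.94, 1.07 and 0.997 in CD4 WT cells and did not pass in CD8 WT cells; whether the lineages differed in these responses was not tested. Eif3k fell by 0.80 in CD4 KO cells (SE 0.21, adjusted p = 0.0121). In CD4 WT cells Eif3k stood at -0.36 (adjusted p = 0.244), with Eif3f and Eif3h at -0.41 and -0.41 (adjusted p = 0.0366 and 0.0448, under the 1.5-fold threshold).

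The 2 helicase genes parted in CD4 WT cells. Eif4a1 went from 11.39 and 11.91 to 12.76 and 12.84, a rise of 1.15 (SE 0.31, adjusted p = 0.0136), and Eif4a2 from 12.16 and 12.28 to 11.41 and 11.60, a fall of 0.72 (SE 0.17, adjusted p = 0.00623). In CD8 WT cells they differed by 0.64 (adjusted p = 0.211) and -0.56 (adjusted p = 0.0396, under the 1.5-fold threshold). In CD4 KO cells Eif4a1 rose by 0.91 (adjusted p = 0.0480, kept in 4 of 16 leave-one-out fits) and Eif4a2 differed by 0.30 (adjusted p = 0.260). Eif4e2, a cap-binding relative of eIF4E, rose by 0.81 in CD4 WT cells. Its other probe sets read 0.92, -0.72 and -0.34 there, and the mean of all its probe sets was 0.17.

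Of the 5 eEF1 genes 1 rose in WT cells. This was Eef1e1, whose product is part of the multi-tRNA synthetase complex, by 1.47 in CD4 WT and 1.31 in CD8 WT cells (SE 0.23). Eef1a1, Eef1b2 and Eef2 differed by no more than 0.21 in either direction in WT cells, and neither Eef2 nor its kinase gene Eef2k passed in any of the 4 responses. Eif5a rose in all 4, by 1.33, 1.08, 1.36 and 0.90 in CD4 WT, CD8 WT, CD4 KO and CD8 KO cells (SE 0.15), with every 18 h array (12.84 to 13.21) above every 0 h array (11.79 to 12.22). Its other probe set read 2.20, 1.69, 1.76 and 0.32 in the same order. Eef1aknmt rose by 0.83 in CD4 WT cells (adjusted p = 0.00922). Whether initiation and elongation genes differed in how often they rose was not tested.

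Counts of the CD8 responses depended on single arrays. In CD8 WT cells 9 factors passed without replicate 1 at 0 h and 7 without replicate 2 at 18 h. In CD8 KO cells 18 passed without replicate 1 at 18 h, 4 without replicate 2, and 4 without replicate 1 at 0 h; with replicates as a block 11 passed rather than 7. Without replicate 1 the array of high 3′ minus 5′ difference alone stood for its group.

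The response was then compared directly between genotypes, as the KO response minus the WT response in each lineage. None of the 52 passed in either, by limma, with 9 in CD4 and 6 in CD8 cells at an unadjusted p under 0.05, beside 0.524% of all genes with a higher and 0.888% with a lower KO response in CD4 cells, and 0.0403% and 0.226% in CD8 cells. The median difference was -0.15 in CD4 and -0.18 in CD8 cells. Of the 22 factors that rose in CD4 WT cells 16 had a smaller response in CD4 KO cells, and of the 15 of CD8 WT cells 13 did in CD8 KO cells. Since these factors were picked for a high WT response, a smaller value in the other genotype is partly built in, and no test was made of these counts. The 6 factors that rose in all 4 responses, a count not made over all genes, were Eef1e1, Eif1a, Eif1ax, Eif2s2, Eif4ebp1 and Eif5a. Other probe sets read lower in the CD8 KO response. They gave 0.52 for Eif1a (against 1.04), 0.30 for Eif1ax (0.91), 0.32 for Eif5a (0.90) and -0.33 to 0.75 for Eif2s2 (0.84).

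Nearest to the threshold in CD4 cells were Eif4a2, with a difference of responses of 1.02 (SE 0.24, adjusted p = 0.0670), and Eif2b2, with -0.82 (SE 0.20, adjusted p = 0.0721). Both passed with replicates as a block (adjusted p = 0.0365 and 0.0368) and without either CD8 KO 18 h array. In CD8 cells Eif2b2 came nearest, with -0.70 (adjusted p = 0.229). Eif2d differed by -0.84 in CD4 cells (adjusted p = 0.225): WT cells rose by 0.86, and KO cells moved by 0.02. Eif3l showed -0.76 and -0.60 in CD4 and CD8 cells and Eif6 -0.56 and -0.56, without passing. Without replicate 1 of CD8 KO at 18 h Eef1d and Eif4a1 passed in CD8 cells.

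**Figure D4:**
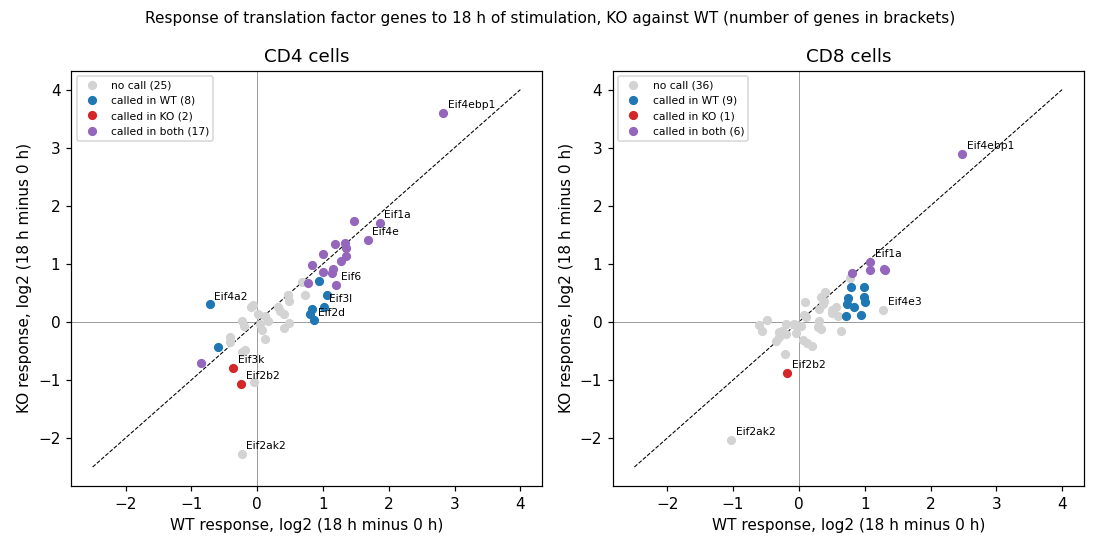
Response to 18 h of stimulation (18 h minus 0 h, log2) in KO cells against WT cells for each of the 52 factors, CD4 cells on the left and CD8 cells on the right, with the dashed line of equal response and colours for the genotypes in which a gene passed. Most coloured points sit below the dashed line, Eif4ebp1 sits above it in both panels, and Eif4a2 lies left of 0 in WT and above 0 in KO CD4 cells.

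Between CD4 and CD8 cells no factor differed past the thresholds before stimulation. In WT cells at 0 h there was none, where 0.645% of all genes were higher in CD8 cells and 0.637% lower, and in KO cells at 0 h there was none (1.59% and 0.718%), with no factor at an unadjusted limma p under 0.05 in either. At 18 h none passed in WT cells (2.32% and 0.96% of all genes). There 5 factors had an unadjusted limma p under 0.05, a level at which the share of all genes was not computed. In KO cells at 18 h 4 were lower in CD8 than in CD4 cells and none higher, where 9.12% of all genes were higher and 4.54% lower. These 4, named because they were few, were Eif4e (-1.19, adjusted p = 0.00961), Eef1e1 (-0.81, 0.0340), Eif3d (-0.78, 0.00703) and Eif1a (-0.68, 0.0201). For Eif4e the CD4 KO arrays read 10.40 and 10.26 and the CD8 KO arrays 9.33 and 8.95. The count rests on single arrays: it was 16 without replicate 1 of CD8 KO at 18 h, 2 without replicate 2, and 1 and 0 without replicates 1 and 2 of CD4 KO at 18 h, and 8 with replicates as a block.

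Beside the named factors, 34 measured genes of termination, recycling, poly(A) binding and translational control served as a second list. In WT cells 9 rose and 5 fell in the CD4 lineage and 4 rose and 5 fell in the CD8 lineage, 26.5% and 14.7% of the 34 against 12.2% and 14% of all genes, and 11.8% and 14.7% against 8.21% and 7%. In KO cells 6 rose and 6 fell in the CD4 lineage (17.6% each way, against 11.1% and 13.2%), and 1 rose and 2 fell in the CD8 lineage (2.94% and 5.88%, against 3.67% and 3.86%). Pabpc4, a poly(A)-binding protein gene, rose by 1.83 and 1.36 in CD4 and CD8 WT cells. Gspt1, which encodes the release factor eRF3, rose by 1.42 and 1.19. Larp1, whose product controls mRNAs of the ribosome itself, rose by 1.12 and 0.66. Pdcd4, whose product inhibits eIF4A, fell by 1.74 and 0.94, from 11.58 and 11.53 to 9.93 and 9.70 in CD4 WT arrays. The medians of the 34 were 0.22 and 0.03 in CD4 and CD8 WT cells.

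Between genotypes none of the 34 differed at 0 h, 2 were lower in CD4 KO cells at 18 h (5.88%, against 4.14% of all genes) and 1 was lower in CD8 KO cells (2.94%, against 1.16%), counts too small to set the list apart, and these 3 are named because they were few. Impact, whose product restrains the eIF2 kinase GCN2, read 7.75 and 7.52 in CD4 WT and 6.47 and 6.21 in CD4 KO arrays at 18 h (-1.29, SE 0.22, adjusted p = 0.00354) and was the single gene of this list with a different response between genotypes (-1.54, adjusted p = 0.0324, kept in 7 of 16 leave-one-out fits). Mcts1, whose product works with DENR much as eIF2D works alone, differed by -0.84 (SE 0.22, adjusted p = 0.0373) in the same comparison and differed by -0.46 in CD8 cells (adjusted p = 0.329). Bzw2 differed by -1.46 in CD8 KO cells at 18 h (SE 0.35, adjusted p = 0.0462), with 9.52 and 7.96 in the KO arrays, and that call held in 1 of 16 leave-one-out fits.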

How the data were processed

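Transcripts of sorted naive T cells were measured on Affymetrix mouse M430 arrays after 2 rounds of RNA amplification. The deposited values are log2 signals, 1 per probe set and array, computed by the authors with the R package affy. Its version and the summary and normalization method were not given in the sources used here; limma is also named in the submitters' processing notes. Array medians lay between 5.24 and 5.43, and the values were used as deposited. If arrays were scaled to a common level, a shift shared by most transcripts has been removed from these values. Arrays give no counts, so precision rests on their number.

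Of 22690 probe sets, 64 were controls, 20393 named 1 gene, 691 several and 1606 none, and 20364 of those naming 1 gene had their gene ID in RefSeq (GRCm38.p6). A gene was represented by its probe set of highest mean, and 6 probe sets that named a factor with other genes were left out. Promoter windows came from the RefSeq table of the same build. Groups were taken from the labels. The fit used limma 3.58.1 (R 4.3.3) with 8 group means and 1 spread per gene over all 16 arrays (8 residual and 4.32 prior degrees of freedom), tested two-sided and adjusted by Benjamini-Hochberg over the 12394 genes of a comparison. The fitting was tested on simulated data.

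Replicate numbers were checked for pairing. Deviations of same-numbered arrays from their group means correlated at 0.26 to 0.45 between CD4 groups and at 0.18 to 0.56 between CD8 groups. Between the lineages they correlated at -0.60 to -0.12. The numbers were therefore taken to pair arrays within a lineage. The 0 h and 18 h groups of a genotype, parts of divided sorts, correlated at 0.27 to 0.56. WT and KO groups of the same time, from different mice, correlated at 0.39 to 0.45. What same-numbered arrays shared was not tested. The main fits nevertheless used no block, as the study's methods name none, so their calls and SEs leave this pairing out. Fits with the number as a block are given where they change a call.

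Factors named with values were those that passed between genotypes, those that passed in both WT responses (up to 3 a role), those that moved against their role, and up to 2 per role without a KO call, by highest mean; of the 34 further genes, the 4 largest in both WT responses. The genes, role lists and tests were chosen with earlier results of these data known. Alternatives covered the fold threshold, normalization, filter, probe set, shared spread, pairing and each array left out.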

Additional observations from a re-analysis of the deposited data

How the results depend on the processing

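Counts of factors that passed were recomputed under other settings; no difference that had passed changed direction. Among the 416 values of the 52 factors between genotypes and times, 33 that had not passed changed sign with the mean of a gene's probe sets, among them Eif5 in WT responses (0.72 in CD4 and 0.09 in CD8 cells). With a test relative to 1.5 fold (limma's treat), counts between genotypes fell from 1 to 0 at 0 h in each lineage, from 6 to 1 (Eif2d) for CD4 cells at 18 h and from 1 to 0 for CD8 cells at 18 h; from 25 to 12, 15 to 0, 19 to 8 and 7 to 1 in the responses of CD4 WT, CD8 WT, CD4 KO and CD8 KO cells; and from 4 to 0 between KO lineages at 18 h. Without a fold threshold that last count was 7. Centring each array on its median gave 2 in CD4 cells at 0 h (1 higher, 1 lower), 8 in CD4 cells at 18 h (3 higher, 5 lower), 2 in CD8 cells at 18 h and 15 between KO lineages at 18 h; quantile normalization gave 3 at 0 h in CD4 cells (2 higher, 1 lower), 15 higher and 2 lower in CD8 WT responses, and 1 difference of CD4 responses (Eif2b2). Genes above the median level alone gave 2 in CD4 cells at 0 h and 2 in CD8 cells at 18 h. The mean of a gene's probe sets gave 0 in CD8 cells at 18 h, 4 in the CD8 KO response, 1 between WT lineages and 7 between KO lineages at 18 h.

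With a replicate block within lineages, counts were 3 in CD4 cells at 0 h (Eif1a, Eif2b2, Eif2d), 5 in CD8 cells at 18 h, 11 in the CD8 KO response, 2 differences of CD4 responses and 8 between KO lineages at 18 h; the block ended no call. A spread from 8 arrays gave 2 for CD4 and 0 for CD8 cells at 0 h, 0 in CD8 cells at 18 h and 2 between KO lineages at 18 h. Without the 3 arrays of highest 3′ minus 5′ difference, counts were 2 in the CD8 KO response, 1 between WT lineages and 2 between KO lineages at 18 h. The cause of these changes was not tested.

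Leaving out each array in turn gave, between genotypes, 0 to 2 (CD4) and 1 to 1 (CD8) factors at 0 h and 2 to 6 (CD4) and 0 to 8 (CD8) at 18 h; 22 to 27, 7 to 17, 14 to 21 and 4 to 18 in the CD4 WT, CD8 WT, CD4 KO and CD8 KO responses; 0 to 2 in each difference of responses; and 0 at 0 h in WT and KO lineages, 0 to 1 at 18 h in WT and 0 to 16 at 18 h in KO lineages.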
